A study of Mus musculus with 12 samples.

Results

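Map2, Tubb3, Nefl, Nefm, Nes, Sox2, Sox10, S100b and Ncam1 are used as markers of neurons, neural progenitors, neural crest and glia, and here their RNA was measured in mouse embryonic fibroblasts (MEF) with and without huntingtin. The 9 genes were chosen by symbol as textbook markers, with no threshold on a measured value but with earlier results of these data known, out of 55487 genes in the count files, 55394 of which had a symbol in the GRCm38 annotation. All 9 symbols matched a single gene. Map2 and Ncam1 were abundant, Nes was moderate, and Tubb3, S100b, Nefm, Sox10, Sox2 and Nefl were low. None passed the test for a difference between HTT-deleted and control cells in either kind of RNA. In control cells Nes and Map2 were lower in ribosome-associated RNA than in total RNA once replicate number was a block in the fit, 2 of 8 genes tested, in a fit that called 25.9% of all genes lower and 50.2% in either direction. In a test added after the data had been seen, 6 of 8 genes differed between replicate numbers in ribosome-associated RNA, against 25.3% of all genes, and 0 of 7 did so in total RNA.

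All cells were primary MEF cultures from E13.5 embryos with HTT-floxed alleles (HTTfl/fl), so the controls carried the floxed gene too. HTT-deleted cells had received a lentivirus encoding Cre recombinase with GFP (LV-Cre-GFP), and control cells a lentivirus encoding H2B-eGFP; every culture thus went through transduction, and the cells were harvested 7 days later. From each culture, ribosomes were purified for ribosome-associated RNA, and the total RNA came from a 1 in 15 aliquot of the same cells. The 12 libraries form 4 groups of 3, HTT-deleted ribosome-associated, control ribosome-associated, HTT-deleted total and control total, with replicates from different primary cultures or from independent passages, a distinction not given for single libraries. Cre acts only in cells that the virus enters, and the share of cells transduced was not measured here.

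Map2 protein binds and stabilises microtubules in dendrites, and Tubb3 is the beta-tubulin isotype used as a marker of neurons. Nefl and Nefm are the light and medium chains of neurofilaments, the intermediate filaments of axons. Nes (nestin) is the intermediate filament protein of neural stem cells, also made by muscle precursors, endothelium and other dividing mesenchyme. Sox2 is a transcription factor of neural progenitors and pluripotent cells, and Sox10 one of neural crest, Schwann cells, melanocytes and oligodendrocytes. S100b is a calcium-binding protein of astrocytes and Schwann cells that cartilage and fat cells make too, and Ncam1 is a cell adhesion molecule of neurons, muscle and mesenchyme. Most of these genes are therefore markers in combination rather than alone. The embryos from which fibroblasts are prepared contain nerve, neural crest, muscle and blood cells along with connective tissue.

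Tubb3 is the member whose reads could most easily be confused with those of relatives, because beta-tubulin genes share most of their coding sequence. The last 60 coding bases, stop codon included, are shown for Tubb3 and for Tubb2a and Tubb2b, the beta-tubulins of the same list with more reads, because this is where the isotypes part. They were read 5′ to 3′ from the GENCODE M21 transcripts of GRCm38; capitals mark bases with no identical base at the aligned position, Tubb3 being aligned to Tubb2a and the other two to Tubb3.
Tubb3: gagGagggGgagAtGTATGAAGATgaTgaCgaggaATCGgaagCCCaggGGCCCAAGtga
Tubb2a: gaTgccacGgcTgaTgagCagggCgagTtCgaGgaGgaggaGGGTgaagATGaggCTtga
Tubb2b: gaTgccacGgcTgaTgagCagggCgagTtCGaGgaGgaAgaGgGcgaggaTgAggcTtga
Of the 60 bases, 30 in Tubb3 had no counterpart in Tubb2a. Over the whole coding sequence (1353 bases in Tubb3, 1338 in the other two) Tubb3 was 83.4% identical to Tubb2a and 83.6% identical to Tubb2b, with no identical run longer than 45 bases. Tubb2a and Tubb2b were 96.5% identical to each other with a run of 551 bases in common, so reads from that run could not be told apart by sequence. The runs that Tubb3 shared with these genes were far shorter. Other beta-tubulin genes were not compared.

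The RefSeq promoter table held 5 of the 9 genes, and the 250 bases before the RefSeq start site, which is not that of the gene models whose coordinates are given with the values, are shown for Map2 and Sox2, the CpG-richest of these windows, because the genes' RNA levels lay far apart. Capitals mark CpG dinucleotides, and the coordinates are those of GRCm38 on the plus strand, chr1:66175079-66175328 for Map2 and chr3:34649745-34649994 for Sox2.
Map2: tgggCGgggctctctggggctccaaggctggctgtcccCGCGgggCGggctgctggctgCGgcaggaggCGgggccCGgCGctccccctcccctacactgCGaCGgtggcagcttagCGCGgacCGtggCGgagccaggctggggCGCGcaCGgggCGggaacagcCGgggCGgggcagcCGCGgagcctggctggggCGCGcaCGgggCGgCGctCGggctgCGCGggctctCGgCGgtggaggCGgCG
Sox2: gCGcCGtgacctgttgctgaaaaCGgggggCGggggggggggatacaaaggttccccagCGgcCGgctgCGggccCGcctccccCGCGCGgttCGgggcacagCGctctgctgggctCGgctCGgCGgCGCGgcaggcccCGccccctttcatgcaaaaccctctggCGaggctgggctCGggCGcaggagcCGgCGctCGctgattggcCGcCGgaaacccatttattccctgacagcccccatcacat
The Map2 window held 34 CpG, a number reached by 3.5% of 32851 such windows, and the Sox2 window held 27, reached by 8.6%. Tubb3 had 21, Nes 15 and S100b 2, against a median of 6 over all windows. CpG content did not order these 5 genes by their level: Sox2, with the second most CpG, had the lowest level of the 5.

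The libraries held 16789356 to 30571501 reads counted to genes, and levels are given as CPM, read counts relative to the size of the library, after TMM scaling, which equalises libraries for the bulk of genes. Htt itself was at 7.27 ± 4.81 CPM in HTT-deleted and 24.9 ± 6.26 CPM in control ribosome-associated RNA, and at 12.3 ± 2.81 CPM in HTT-deleted and 56.4 ± 9.64 CPM in control total RNA (SD, n = 3 each). The groups did not overlap in either fraction, at log2 fold changes of -1.78 (SE 0.47) in ribosome-associated and -2.16 (SE 0.24) in total RNA, lower in 3 of 3 pairs of each. Even so Htt did not pass the edgeR test over all genes (adjusted p = 1.00 in ribosome-associated and 0.812 in total RNA). In the authors' deposited table its false discovery rates were 4.5e-07 in ribosome-associated and 4.0e-39 in total RNA. Those come from another fit, labelled RUVSeq and edgeR, with a likelihood ratio statistic, so the values are not from like tests. A pair of libraries stood apart. In HTT-deleted total replicate 1, a gene's deviation from its fraction's mean fell with exon length (Spearman correlation across 13529 genes -0.491, against 0.156 to 0.332 in the other total libraries), and so it did in control ribosome-associated replicate 1 (-0.385, against 0.0283 to 0.137). Fibroblast markers dominated, with 15 of 15 at a mean of 1 CPM or more and a summed level of 29792 to 56864 CPM per library. Macrophage markers were present as well, 18 of 18 at a mean of 1 CPM or more. Their sum was 9379, 3139 and 4095 CPM in HTT-deleted and 5437, 1338 and 2941 CPM in control ribosome-associated replicates 1, 2 and 3, and 7862, 2054 and 3136 CPM in HTT-deleted and 3714, 894 and 2060 CPM in control total RNA, with the HTT-deleted library above its control in every pair. In bulk RNA, fewer cells of a type and less RNA per cell cannot be told apart.

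Map2 lies at chr1:66175273-66442583 on the plus strand and has the longest exons of the 9, 16449 bases in all. It had 86.0, 136 and 116 CPM in HTT-deleted and 80.9, 146 and 119 CPM in control ribosome-associated replicates 1, 2 and 3. In total RNA it had 71.5, 209 and 180 CPM in HTT-deleted and 137, 214 and 182 CPM in control replicates 1, 2 and 3. Replicate 1 was the lowest within each of the 4 groups, and the lowest value of the 12 was that of HTT-deleted total replicate 1, the library in which long genes were low. Apart from that library, the groups of a fraction differed by little within each replicate number.

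Tubb3 lies at chr8:123411424-123422015 on the plus strand. It had 5.23, 5.79 and 3.06 CPM in HTT-deleted and 5.83, 8.94 and 3.07 CPM in control ribosome-associated replicates 1, 2 and 3. The total libraries held 6.96, 4.80 and 3.14 CPM in HTT-deleted and 4.06, 8.26 and 2.88 CPM in control cells. Replicate 3 was the lowest of every group, at nearly the same level in all 4, whereas replicates 1 and 2 varied. These values rest on 59 to 195 reads per library.

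The neurofilament genes Nefl (chr14:68083863-68089095, plus strand) and Nefm (chr14:68082590-68124846, minus strand) overlap on opposite strands and share 1108 exon bases, 32.8% of the exon length of Nefl and 19.2% of that of Nefm. The libraries were stranded, but no source used here gives the strand setting of the counting, so reads from the shared stretch are uncertain. Nefm had 0.596, 1.32 and 0.589 CPM in HTT-deleted and 0.806, 2.29 and 0.621 CPM in control ribosome-associated RNA. In total RNA it had 1.21, 2.18 and 0.691 CPM in HTT-deleted and 1.01, 2.22 and 0.775 CPM in control cells. Replicate 2 was the highest of every group, on 32 to 50 reads.

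Nefl was close to undetected. The libraries held 5, 3 and 1 reads in HTT-deleted and 0, 6 and 0 reads in control ribosome-associated RNA, and 2, 3 and 0 reads in HTT-deleted and 2, 4 and 1 reads in control total RNA, 27 in all. A count of 0 allows up to 0.186 and 0.0980 CPM in control ribosome-associated replicates 1 and 3, and up to 0.159 CPM in HTT-deleted total replicate 3 (3 reads, counting error only). Since 9 of the 12 libraries had 3 reads or fewer, no fold change is given and no difference was detectable at this depth.

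Nes lies at chr3:87971078-87980451 on the plus strand. It had 19.6, 16.5 and 23.8 CPM in HTT-deleted and 25.4, 19.1 and 24.9 CPM in control ribosome-associated replicates 1, 2 and 3. Its total libraries held 42.5, 28.3 and 50.2 CPM in HTT-deleted and 53.3, 27.0 and 54.2 CPM in control cells. All 6 ribosome-associated values lay under all 6 total values, and replicate 2 was the lowest of every group. Of the genes tested in the 9, Nes alone had fractions that did not overlap in either condition.

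Sox2 lies at chr3:34650405-34652461 on the plus strand, a single exon within an intron of the noncoding gene Sox2ot, with which it shares no exon base. It had 9, 13 and 2 reads in HTT-deleted and 11, 24 and 4 reads in control ribosome-associated RNA, which is 0.413, 0.537 and 0.0736 CPM in HTT-deleted and 0.682, 1.10 and 0.131 CPM in control cells. In total RNA it had 6, 6 and 3 reads in HTT-deleted and 17, 18 and 3 in control cells, or 0.331, 0.327 and 0.159 CPM in HTT-deleted and 0.557, 0.890 and 0.111 CPM in control cells. Replicate 3 of every group was at or next to the limit of 3 reads. Sox2ot itself had at most 3 reads in any library.

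Sox10 lies at chr15:79154908-79165240 on the minus strand. It had 1.24, 0.909 and 0.368 CPM in HTT-deleted and 1.86, 1.15 and 0.817 CPM in control ribosome-associated RNA. The total libraries held 0.221, 1.58 and 0.531 CPM in HTT-deleted and 1.96, 1.68 and 0.369 CPM in control cells. The groups overlapped in both fractions, and the lowest value, on 4 reads, came again from HTT-deleted total replicate 1.

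S100b lies at chr10:76253853-76261159 on the plus strand, where Dip2a reaches into it from the opposite strand without a shared exon base. It had 1.83, 1.90 and 2.10 CPM in HTT-deleted and 2.05, 1.42 and 3.10 CPM in control ribosome-associated RNA. In total RNA it had 2.98, 1.09 and 1.81 CPM in HTT-deleted and 1.41, 0.593 and 2.73 CPM in control cells. Its values overlapped between all 4 groups, and replicate 2 was the lowest in all groups but HTT-deleted ribosome-associated RNA.

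Ncam1 lies at chr9:49502136-49798925 on the minus strand. The antisense gene Gm11149 shares 417 of its exon bases and had at most 5 reads in any library. Ncam1 had 125, 137 and 71.2 CPM in HTT-deleted and 158, 194 and 75.6 CPM in control ribosome-associated RNA. In total RNA it had 120, 138 and 78.6 CPM in HTT-deleted and 147, 169 and 71.9 CPM in control cells. Replicate 3 was the lowest of each group by far, and in replicates 1 and 2 the HTT-deleted library was the lower of both fractions.

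**Figure D1:**
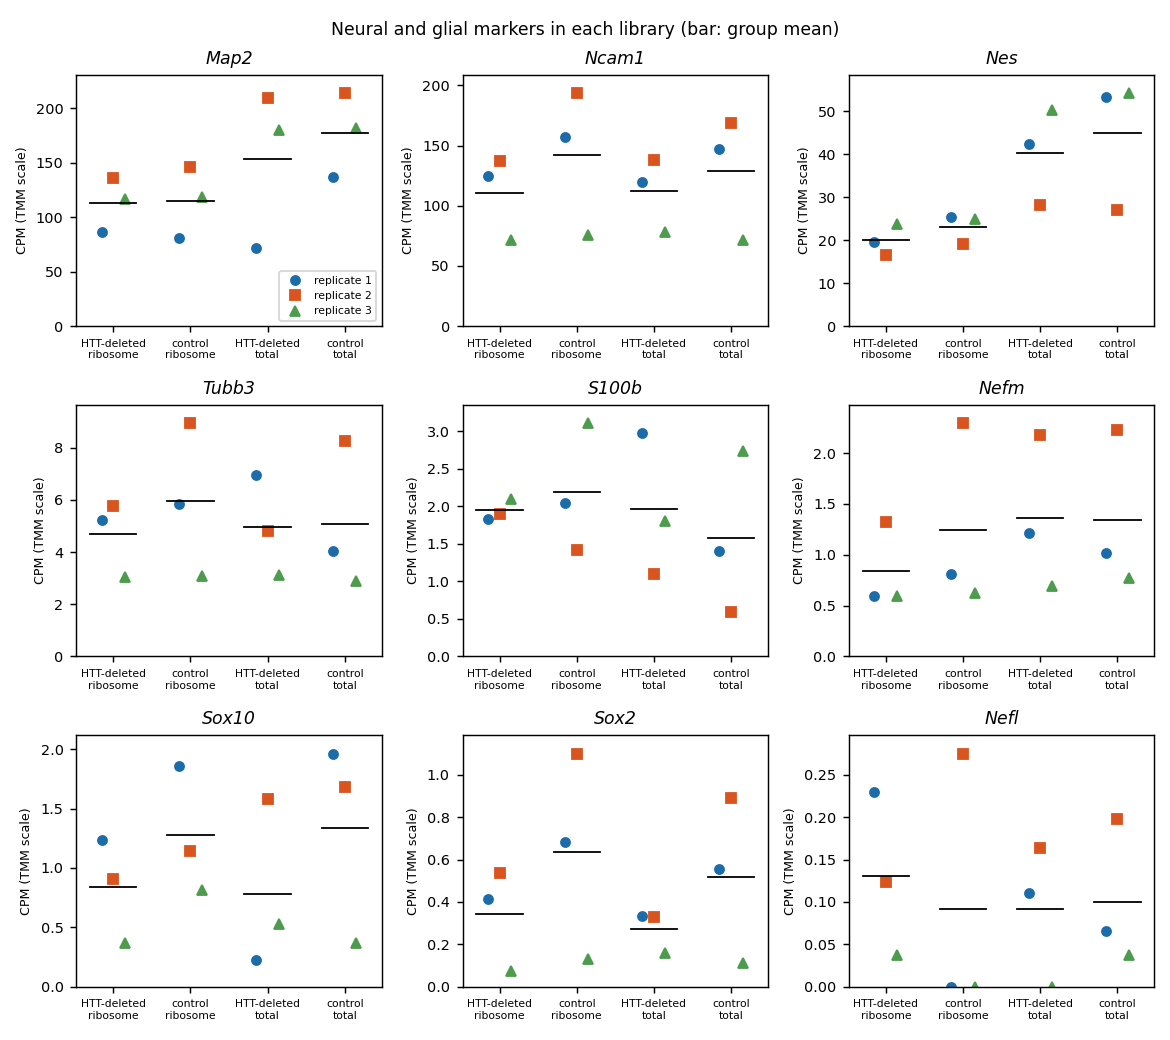
CPM on the TMM scale (y axis, from 0, its own range in each panel) of the 9 genes in each library, by group on the x axis, with circles, squares and triangles for replicates 1, 2 and 3 and a bar for the group mean. Replicate 3 of Ncam1 lies between 71.2 and 78.6 CPM in all 4 groups, under every other replicate, and the 6 ribosome-associated values of Nes lie under the 6 total ones.

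To compare genes, levels were set per kilobase of exon, counting all annotated exons of a gene, whichever of its transcripts were made. Ncam1 had the highest median level on this scale over the 12 libraries, 15.1 CPM per kb. Map2 followed with 8.31, Nes with 4.08, Tubb3 with 2.68 and S100b with 1.26 CPM per kb. Sox10 had 0.337, Sox2 0.181, Nefm 0.157 and Nefl 0.0260 CPM per kb. Neighbours in this order overlapped over the libraries except Nefm and Nefl. Ncam1 was above Map2 in 10 of 12 libraries, Map2 above Nes in 11, Nes above Tubb3 in 9, Tubb3 above S100b in 10, S100b above Sox10 in 11 and Sox10 above Sox2 in 10, but Sox2 was above Nefm in only 6. By mean CPM, among the genes with any read in the 12 libraries, 95.2% lay below Map2, 94.4% below Ncam1 and 78.6% below Nes, against 36.9% below Nefl.

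The study compared HTT-deleted with control cells in each fraction. In ribosome-associated RNA, 8 of the 9 genes had enough reads to be tested, all but Nefl. None of the 8 was called at an adjusted p under 0.05 (quasi-likelihood test in edgeR, adjusted over all genes by the Benjamini-Hochberg procedure, from which every edgeR adjusted p here comes), where 0% of 14588 genes were called, 110 had an unadjusted p under 0.05, and DESeq2 called 1 gene. All 8 estimates were below 0, with a median of -0.34 on the log2 scale, against -0.00 for all genes tested, of which 7249 were above 0. They ranged from -0.02 (SE 0.25) for Map2 to -0.87 (SE 0.89) for Sox2. Tubb3 was at -0.33 (SE 0.42), Nes at -0.21 (SE 0.17), Sox10 at -0.58 (SE 0.53), S100b at -0.18 (SE 0.34), Ncam1 at -0.35 (SE 0.39) and Nefm at -0.56 (SE 0.61), each with an edgeR adjusted p of 1.00. None of the 8 had groups that did not overlap, as 5.44% of all genes tested did.

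Libraries with the same replicate number varied together, so the comparison was also fitted with the number as a block, which called 247 of 14588 genes, 1.69%. Of the 8 genes, Ncam1 came closest, at -0.31 (SE 0.08) with an edgeR adjusted p of 0.0845, and the HTT-deleted library was the lower in 3 of 3 pairs, by 0.34, 0.50 and 0.09 on the log2 scale. Sox2, Nes, Sox10, Nefm and Tubb3 were below 0 in all 3 pairs as well, and their edgeR adjusted p values with the block were 0.519 to 0.701. Map2 was nearly equal in every pair, with differences of 0.09, -0.10 and -0.03 and an estimate of -0.01 (SE 0.08). Among the genes the block did call were 11 of the 18 macrophage markers, all higher in HTT-deleted cells, as 1.46% of all genes were, and the adhesion molecule Nrcam, at 0.56. The melanocyte list (5 tested) and the endothelial list (6 tested) each held 1 gene called higher as well. The share of macrophage RNA therefore moved with the comparison, all 18 markers being above 0 with a median of 0.75 (0.17 without HTT-deleted ribosome-associated replicate 1, the library with most macrophage RNA, 0.38 and 1.32 without control replicates 2 and 1, and 0.83 with the block), while 2 of 15 fibroblast markers were above 0 with a median of -0.09. Its part in the values of the neural genes was not tested.

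In total RNA, 7 genes could be tested, without Sox2 and Nefl. None of the 7 was called, against 0% of 14759 genes; 44 genes had an unadjusted p under 0.05 and DESeq2 called 3. None of the 7 had groups that did not overlap, as 4.21% of all genes tested did. With 3 of 7 estimates above 0, the median was -0.12, against 0.01 for all genes. Map2 was at -0.19 (SE 0.38), Tubb3 at 0.02 (SE 0.49), Nes at -0.12 (SE 0.33), Ncam1 at -0.18 (SE 0.36), Nefm at 0.07 (SE 0.58), Sox10 at -0.76 (SE 0.84) and S100b at 0.35 (SE 0.62), with edgeR adjusted p values of 0.978 to 0.995. For Sox10 and Map2 most of the spread came from pair 1, which holds HTT-deleted total replicate 1, the library with low long genes. Sox10 differed by -2.73 and Map2 by -0.94 in pair 1, against -0.08 and 0.44 for Sox10 and -0.03 and -0.01 for Map2 in pairs 2 and 3. Sox10 has 3051 exon bases and had 4 reads in that library, and the part of exon length was not tested. Pairs 1 and 2 were at 0.76 and -0.77 for Tubb3, -0.30 and -0.29 for Ncam1, and 1.04 and 0.79 for S100b. They were at 0.24 and -0.03 for Nefm and -0.33 and 0.07 for Nes. Without HTT-deleted total replicate 1 the estimate for Map2 was 0.15 (SE 0.20) and that for Sox10 -0.33 (SE 0.84), and no gene of the whole table was called. All 18 macrophage markers were above 0 in total RNA too, with a median of 0.97 (0.19 without HTT-deleted total replicate 1, 0.59 and 1.65 without control total replicates 2 and 1), and their part in these values was not tested.

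The difference between the effects in the 2 fractions was tested directly, as the HTT effect on the ribosome-associated to total ratio. No gene was called, 0% of 15574, with 85 at an unadjusted p under 0.05 and 0 called by DESeq2. The 8 genes tested ran from -0.60 (SE 0.89) for Nefm to 0.18 (SE 1.06) for Sox10, with a median of -0.10, against 0.01 for all genes. In this fit, which does not pair the fractions of a culture, the lower estimates in ribosome-associated RNA of Tubb3, S100b and Nefm were within their errors. With each culture as a block the ratio estimates were -0.30 (SE 0.26) for Tubb3, -0.50 (SE 0.46) for S100b and -0.50 (SE 0.38) for Nefm. These exceeded their errors but were not called, each with an edgeR adjusted p of 0.859.

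In the authors' deposited table, which gives fold changes whose numerator is not stated but whose value for Htt is negative in both fractions, 8 of the 9 genes were listed, all but Nefl. None of the 8 had a false discovery rate under 0.05 in the authors' deposited table, which had 683 of 16235 genes under it in ribosome-associated and 844 of 16974 in total RNA. These counts come from the authors' own fit, labelled RUVSeq and edgeR, and not from the test used here. The lowest in the authors' deposited table were Ncam1 in ribosome-associated RNA, with a log2 fold change of -0.31 and a rate of 0.0651, and Sox10 in total RNA, with -1.06 and 0.157.

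**Figure D2:**
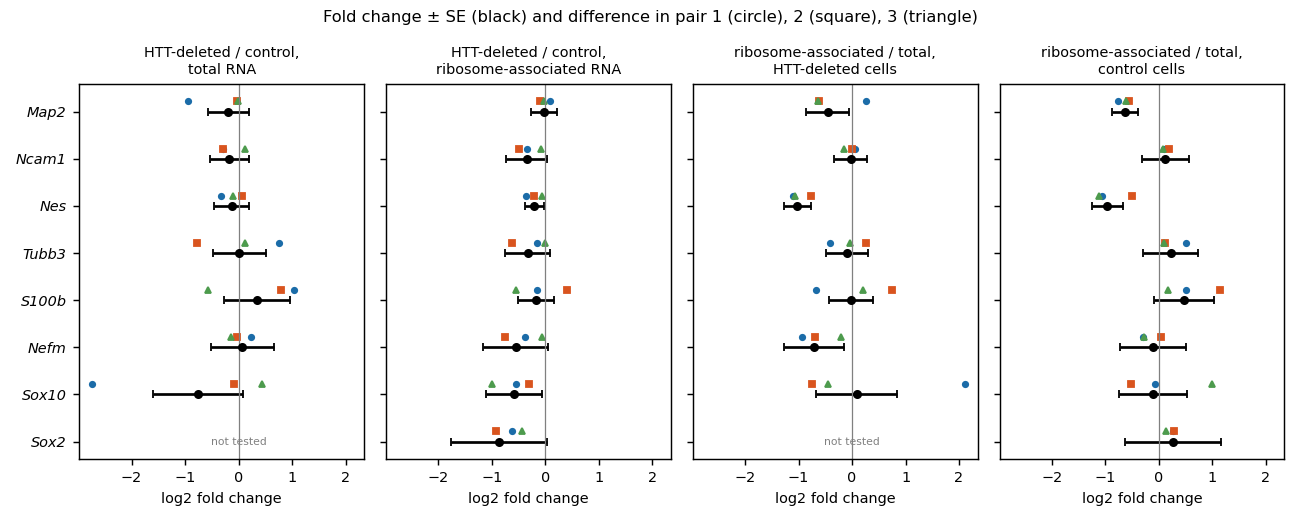
Log2 fold change (x axis) of 8 genes in 4 comparisons, as the edgeR estimate with its standard error (black) and as the difference within pairs 1, 2 and 3 (circle, square, triangle). All estimates for HTT-deleted over control in ribosome-associated RNA lie below 0 but within about their errors, and Nes lies near -1.02 and -0.96 for ribosome-associated over total RNA in HTT-deleted and control cells.

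Ribosome-associated RNA was set against total RNA within each condition. The fit without the block does not pair the fractions of a culture, whereas the replicate block pairs them by number. In HTT-deleted cells Nes was at about 0.492 times its total level, a log2 fold change of -1.02 (SE 0.25), lower in 3 of 3 pairs (-1.11, -0.78 and -1.08) and without overlap, as were 11.6% of genes in that direction. Its edgeR adjusted p was 0.139, in a fit that called 131 of 14627 genes (0.896%), none of the 7 neural genes tested among them. With the replicate block, which called 0.663% of genes and none of the 7, its edgeR adjusted p was 0.0665, and DESeq2 without the block called it at an adjusted p of 0.0120. In control cells Nes was at 0.513 times its total level, -0.96 (SE 0.29), again lower in 3 of 3 pairs (-1.07, -0.50 and -1.12) and without overlap, as were 23.5% of genes in that direction. The edgeR adjusted p was 0.0540 without the block, where 0 of 8 neural genes and 25% of 14990 genes were called, and 1.1e-05 with it; without control total replicate 2 it was 0.00828.

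Map2 showed the same direction with more scatter. In HTT-deleted cells it was at -0.46 (SE 0.40), with pair differences of 0.27, -0.62 and -0.63; the positive value is from the pair of HTT-deleted total replicate 1, and without that library the estimate was -0.79 (SE 0.20) with an edgeR adjusted p of 0.0506. In control cells it was at -0.63 (SE 0.24) with an edgeR adjusted p of 0.108, lower in 3 of 3 pairs (-0.76, -0.55 and -0.61). With the replicate block Map2 fell by 0.65 (SE 0.07) in control cells, with an edgeR adjusted p of 8.9e-06, in a fit that called 50.2% of all genes tested, with 25.9% of all genes called lower. Map2 and Nes were the 2 of 8 genes it called, and DESeq2 without a block called the same 2, with adjusted p values of 0.0394 for Map2 and 0.00398 for Nes. On pairs 2 and 3 alone, without the pair that holds HTT-deleted total replicate 1, the blocked fit also called both genes in HTT-deleted cells, Map2 at -0.63 (SE 0.05) and Nes at -0.95 (SE 0.08), in a fit that called 8333 of 14981 genes. That fit rests on very few libraries, so its small errors are uncertain. The block on all 3 pairs called 97 of 14627 genes in HTT-deleted cells and neither Map2 nor Nes. Without control ribosome-associated replicate 1, the other library that stood apart, the control values were -0.42 (SE 0.21) for Map2 and -1.02 (SE 0.35) for Nes with edgeR adjusted p values of 0.244 and 0.117 in the fit without the block.

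Ncam1 did not follow. It was at -0.02 (SE 0.31) in HTT-deleted and 0.12 (SE 0.44) in control cells, and with the block at -0.04 (SE 0.13) in HTT-deleted and 0.12 (SE 0.07) in control cells, so that its ribosome-associated and total levels lay close in every pair. In HTT-deleted cells Tubb3 was at -0.09 (SE 0.39), S100b at -0.02 (SE 0.41), Nefm at -0.71 (SE 0.56) and Sox10 at 0.08 (SE 0.76). In control cells Tubb3 was at 0.22 (SE 0.51), S100b at 0.47 (SE 0.55), Nefm at -0.11 (SE 0.62), Sox10 at -0.11 (SE 0.63) and Sox2, not testable in HTT-deleted cells, at 0.27 (SE 0.90). None of these passed in the fits with or without the block on all 3 pairs.

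In the fit without the block, 9 genes of the other neural lists were called between the fractions in control cells, all lower in ribosome-associated RNA. Of these, 2 of 12 tested were in the neuronal cytoskeleton list, Map1a at -0.74 and Map1b at -0.95, which code for microtubule-binding proteins. This comparison includes control ribosome-associated replicate 1, where deviations fell with exon length (Spearman correlation -0.385). The part of exon length in these calls was not tested. From the synapse and neuronal identity list 5 of 16 were called, among them the synaptic vesicle and membrane fusion proteins Vamp2 (-0.55) and Stx1a (-1.46), the postsynaptic scaffold Dlg4 (-0.55) and the glycolytic enzyme Eno2 (-1.26). Msi1, an RNA-binding protein of progenitors, was called at -0.87, 1 of 10 in its list, and the oligodendrocyte precursor proteoglycan Cspg4 at -0.47, 1 of 6. Without the block no gene was called in the lists of Schwann cells and neural crest (15 tested), astrocytes (10) or neural adhesion molecules (14). With the block, members that stand in a list included, 3 genes were called higher and 3 lower in the cytoskeleton list, 1 higher and 6 lower in the synapse list, 0 higher and 2 lower in the progenitor list, 1 higher and 2 lower in the oligodendrocyte list, 2 higher and 2 lower in the Schwann and crest list, 1 higher and 1 lower in the astrocyte list, and 0 higher and 2 lower in the adhesion list. Stx1a (-1.49) and Eno2 (-1.28) were called in HTT-deleted cells as well. The counts without the block stand against 25% of all genes in control cells, 10% higher and 15% lower. Those with the block stand against 50.2% of all genes in control cells, 24.3% higher and 25.9% lower. Median log2 fold changes were -0.11 for cytoskeleton and -0.05 for synapse genes in control cells, against 0.02 for all genes; leaving out 1 library at a time they ran from -0.64 to 0.04 for cytoskeleton genes, the ends without control ribosome-associated replicates 2 and 1, and from -0.49 to -0.08 for synapse genes, the ends without control ribosome-associated replicate 2 and control total replicate 1.

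Several of the 9 genes also differed between replicate numbers. Tested within ribosome-associated RNA over both conditions, the number separated 6 of 8 genes, against 25.3% of 14588 genes; this test was added after the data had been seen. Ncam1 averaged 141, 165 and 73.4 CPM in the ribosome-associated libraries of replicates 1, 2 and 3 (edgeR adjusted p = 2.7e-07). Map2 averaged 83.5, 141 and 117 CPM (edgeR adjusted p = 2.4e-05), and Tubb3 5.53, 7.36 and 3.06 CPM (edgeR adjusted p = 0.000643). Replicate 3 was thus low for Ncam1 and Tubb3 but not for Map2, which was low in replicate 1.

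Sox2 averaged 0.547, 0.819 and 0.102 CPM (edgeR adjusted p = 0.00547) and Nefm 0.701, 1.81 and 0.605 CPM (edgeR adjusted p = 0.0101), both highest in replicate 2. Nes went the other way, with 22.5, 17.8 and 24.4 CPM (edgeR adjusted p = 0.0222), lowest in replicate 2. Sox10, at 1.55, 1.03 and 0.592 CPM, and S100b, at 1.94, 1.66 and 2.60 CPM, did not pass, with edgeR adjusted p values of 0.0506 and 0.285. DESeq2 did not call Nes (0.104) or Nefm (0.105) and gave no adjusted p for Sox2. Leaving out control ribosome-associated replicate 2 raised the edgeR adjusted p of Nefm to 0.337, and leaving out control ribosome-associated replicate 3 that of Sox2 to 0.128. Nes lost its call without control ribosome-associated replicate 2 (0.148), HTT-deleted ribosome-associated replicate 2 (0.129) or HTT-deleted ribosome-associated replicate 3 (0.125).

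In total RNA the number separated none of 7 genes and 0% of 14759, with 1713 at an unadjusted p under 0.05, while DESeq2 called 763 genes and Ncam1 among them (0.0144). Without HTT-deleted total replicate 1, edgeR called 3502 genes and all 7 of the neural genes, with adjusted p values from 3.9e-07 for Nes to 0.0328 for S100b. That fit leaves a single total library of replicate 1, so its calls rest on very little. The averages in total RNA had the same order as in ribosome-associated RNA for 6 of 7 genes, among them Ncam1 (133, 153 and 75.3 CPM in replicates 1, 2 and 3), Map2 (104, 212 and 181 CPM) and Nes (47.9, 27.7 and 52.2 CPM). Sox10 differed in its order, with 1.09, 1.63 and 0.450 CPM in total RNA. What the number stands for beyond a separate culture or passage is not given in the labels.

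In ribosome-associated RNA the numbers lay farther apart than the HTT-deleted and control libraries of a pair. On the log2 scale the averages of the 3 numbers spanned 1.15 for Ncam1, 0.75 for Map2, 1.21 for Tubb3 and 2.20 for Sox2. The largest single difference within a pair of HTT-deleted and control libraries was 0.50 for Ncam1, 0.10 for Map2, 0.62 for Tubb3 and 0.93 for Sox2. For Nes the span was 0.46 and the largest pair difference 0.37, and for S100b they were 0.61 and 0.55.

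**Figure D3:**
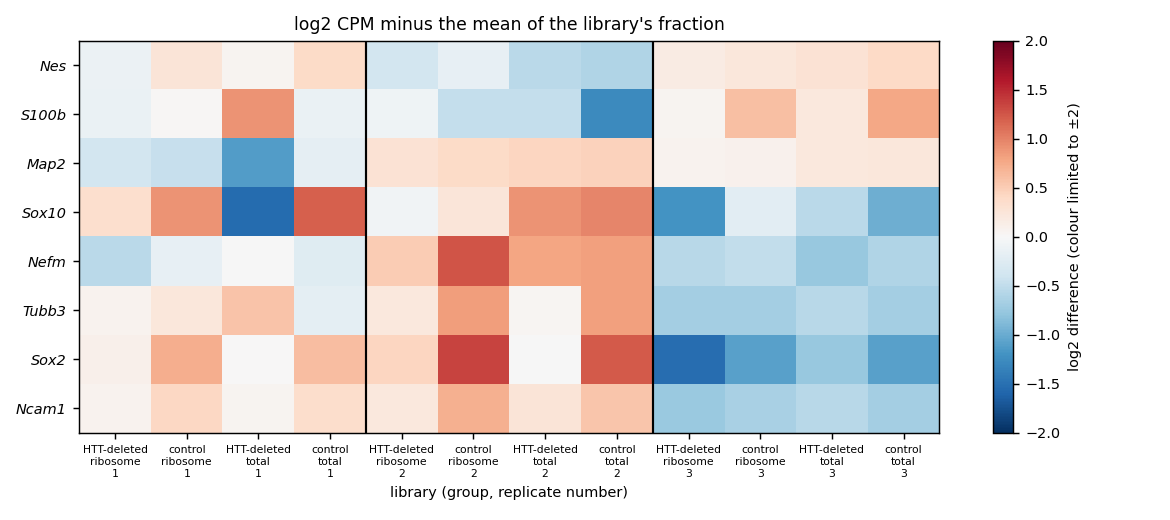
Log2 CPM minus the mean of the library's fraction (colour, red above and blue below, limited to 2 either way) for 8 genes (rows) in the 12 libraries (columns), grouped by replicate number. Ncam1, Sox2, Tubb3 and Nefm are below the mean in all 4 libraries of replicate 3, Map2 is above it in all 4 of replicate 2, and Nes is below it in all 4 of replicate 2.

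The neural lists, some of which hold members of the 9, varied with the number too. Within ribosome-associated RNA, 8 of 11 cytoskeleton genes, 9 of 17 synapse and identity genes, 5 of 10 progenitor genes, 12 of 15 Schwann and neural crest genes, 8 of 10 astrocyte genes, 11 of 14 adhesion molecules, 3 of 6 oligodendrocyte genes and 1 of 5 melanocyte genes were called, against 25.3% of all genes. The growth cone protein Gap43 averaged 5.22, 21.4 and 3.17 CPM in replicates 1, 2 and 3, and the secretory granule protein Scg2 14.1, 67.1 and 5.97 CPM, both highest in replicate 2. The microtubule regulator Stmn2, at 68.8, 47.7 and 168 CPM, and the glutamate transporter Slc17a6, at 1.81, 0.436 and 6.07 CPM, were highest in replicate 3. Among glial genes, Gfap averaged 0.885, 2.11 and 0.153 CPM and the Schwann cell and melanocyte receptor Ednrb 21.7, 24.9 and 6.42 CPM.

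Genes of other cell types varied likewise. In the same test 10 of 15 fibroblast markers, 17 of 18 macrophage markers, 5 of 6 muscle markers, 7 of 11 cartilage markers, 6 of 6 endothelial markers and 3 of 4 fat cell markers were called, against 25.3% of all genes. Averaged over the 4 groups, the macrophage sum was 6598, 1856 and 3058 CPM in replicates 1, 2 and 3, and the muscle list, which includes Ncam1 and Nes, summed to 189, 203 and 119 CPM. The part of these cell types in the neural genes' variation was not tested.

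How far the 9 genes stood for neural cells was read from the genes that define those cells. Of 32 synapse and neuronal identity genes, 10 had 3 reads or fewer in each of the 12 libraries, among them Rbfox3, the antigen of mature neuronal nuclei, Snap25, the vesicle fusion protein of synapses, and Gad1 and Slc32a1 of inhibitory neurons. Rbfox3 was at 0 in 9 libraries, Snap25 in 9, and the migrating neuroblast gene Dcx in 6. The highest members of the list were Dlg4, Vamp2 and Eno2, at means of 75.3, 64.6 and 52.8 CPM, whose products are found in many cell types. In all, 14 of the 32 had a mean of 1 CPM or more, among them Scg2 at 26.6 and Celf4, an RNA-binding protein, at 22.8 CPM.

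Among 19 progenitor genes, 8 had 3 reads or fewer in each library, among them Sox1, Sox3, Pax6 and Neurog2, transcription factors of the neural tube. Sox4, a factor with wide expression in mesenchyme, led that list at 304 CPM, with Nes next. The oligodendrocyte list had 4 of 12 at that limit, including its factor Olig2 and the myelin protein Mog, while Cspg4 (60.3 CPM) and Cnp (20.3 CPM) led it. Of the progenitor genes 5 of 19 and of the oligodendrocyte genes 6 of 12 had a mean of 1 CPM or more.

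In the Schwann cell and neural crest list only Foxd3 and Mal, 2 of 20, had 3 reads or fewer in each library, and 13 of 20 had a mean of 1 CPM or more. Pmp22, a membrane protein of myelin and of fibroblasts, reached 309 CPM, the crest factor Tfap2b 15.7 CPM and Ednrb 14.8 CPM. Of 11 astrocyte genes 8 had a mean of 1 CPM or more, led by Gja1 (260 CPM), Slc1a3 (78.6 CPM) and Sox9 (26.6 CPM), with Gfap at 0.913 CPM.

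The adhesion molecules related to Ncam1 were nearly all present, 13 of 14 with a mean of 1 CPM or more, led by Nrp2 (316 CPM) and Nrp1 (151 CPM), receptors for semaphorins and VEGF. In the cytoskeleton list Dclk1 (158 CPM) and Map1a (124 CPM) stood beside Map2, while Dcx and Stmn3 had 3 reads or fewer in each library. For other cells known to make Ncam1 and Nes, the muscle list had 6 of 18 genes at that limit, among them the factors Myod1, at 0 reads in all 12 libraries, Myf5 and Myf6, and desmin (Des) averaged 6.93 CPM. Col2a1, the cartilage collagen, averaged 56.9 CPM, and cartilage cells also make S100b. The levels say nothing about which cells held the RNA.

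**Figure D4:**
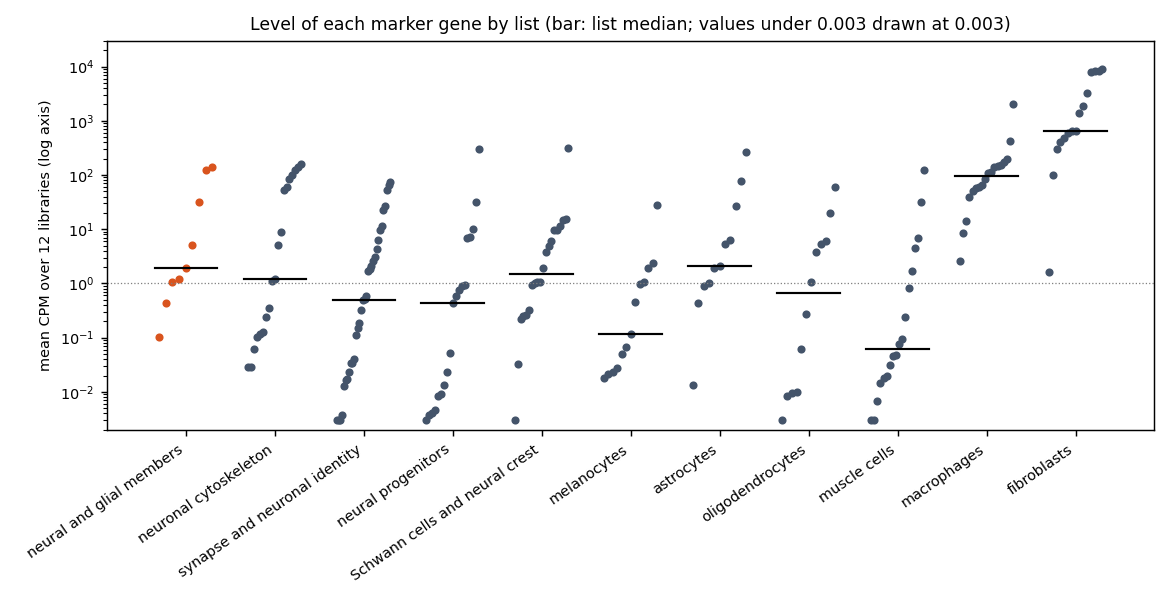
Mean CPM over the 12 libraries (y axis, logarithmic) of every gene in 11 marker lists (x axis), with a bar at each list's median and a dotted line at 1 CPM; lowest values are drawn at the bottom of the axis. The neural lists start near 0, and their highest genes lie between 27.6 CPM (Mitf, melanocytes) and 309 CPM (Pmp22, Schwann cells and neural crest). All 15 fibroblast and all 18 macrophage markers lie above 1 CPM.

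The genes whose pattern over the libraries was most like each member's were found by Pearson correlation of log2 CPM, after subtraction of each fraction's mean, over 12 libraries and 13528 genes. These libraries share cultures and replicate numbers, and their levels depend on exon length to differing degrees, so the coefficients only describe. Ncam1 was most like Loxl2 (0.985), Syt13 and Ccn3, and Map2 most like Sned1 (0.985), Arhgap29 and Enc1. Sox2, in spite of its few reads, was most like Ncam1 (0.978), followed by Rbpms and Trp53inp2. For Tubb3 the nearest were Sgpp1 (0.968), Ccn5 and Ly6a, for Nefm Tnmd (0.977), Srpx and Pla1a, and for Nes Adcyap1r1 (0.944), Daxx and Dhrs11. S100b was nearest to Spg21 (0.948) and Sox10 to Ehd3 (0.920).

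Among the members themselves, Tubb3 went with Sox2 (0.891) and Ncam1 (0.891), and Nefm with Tubb3 (0.803), Ncam1 (0.786) and Sox2 (0.746). Nes ran against Nefm (-0.782) and Tubb3 (-0.649) but with S100b (0.718). Map2 stood apart from Ncam1 (-0.01), Sox2 (0.02) and Tubb3 (-0.11), so the 2 most abundant members did not vary together.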

How the data were processed

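Per the submitters' processing notes, reads were examined with FastQC, aligned with STAR 2.7.2b and counted with HTSeq 0.11.1 on GRCm38 (mm10); the strand setting of the counting was not given in these sources. The deposited counts are whole reads per Ensembl gene; reads assigned to no feature (2.64% to 7.73%) or ambiguous (2.09% to 2.68%) were left out. The authors' deposited table holds log2 fold changes, log2 CPM, p-values with false discovery rates, and likelihood ratio scores.

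Counts were filtered with filterByExpr, scaled by TMM and tested with edgeR 4.0.16's quasi-likelihood test (robust, Benjamini-Hochberg threshold 0.05) within the 2 groups compared, or over all 4 for the ratio. DESeq2 1.42.0, RLE scaling, no filter, replicate blocks and leaving out libraries were the alternatives. Same-numbered libraries deviated together (correlations 0.227 to 0.737 over 15574 genes, at least 0.227 in every pair), so the numbers were taken to pair samples. The tests were checked on simulated counts. For HTT-deleted against control cells, 53.5% of log2 changes of 1 were recovered in ribosome-associated RNA, 13% in total RNA and 8.08% for the ratio. For ribosome-associated against total RNA, 12.1% were recovered in HTT-deleted and 48% in control cells. Of log2 changes of 2, 64.3% (the ratio) to 82.3% (the fractions in control cells) were recovered, so changes of 1 could often be missed. In the measured libraries Htt was not called, at -1.78 in ribosome-associated and -2.16 in total RNA. Recovery in simulated counts therefore need not hold for these libraries, and changes of 2 could be missed too. The members and lists were chosen with earlier results of these data known. Named genes were all members, the called genes of the lists, the highest 3 of each list, and the 3 most alike genes; other list genes named were chosen after their values were seen, and some called list genes are not reported here. Whether replicates were separate embryos' cultures or passages is not stated per sample, so p-values measure the spread between these samples.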

Additional observations from a re-analysis of the deposited data

How the results depend on the processing

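With RLE scaling in place of TMM no log2 fold change of the 9 genes changed sign and every count of genes called stayed within 1.5 times. For HTT-deleted against control cells the count in ribosome-associated RNA was 1 with DESeq2, 247 with the replicate block and 14 with the block on pairs 2 and 3 only, against 0; in total RNA it was 1 without the filter on low counts, 3 with DESeq2 and 94 with the block on pairs 2 and 3 only, against 0. The block left the count at 0 in total RNA and for the ratio. For ribosome-associated against total RNA the block on pairs 2 and 3 only called 8333 genes in HTT-deleted cells, where no filter called 208 and DESeq2 866, against 131. In control cells the block called 7524 and the block on pairs 2 and 3 only 7445, against 3745. Leaving out 1 library at a time gave 0 to 3008 calls in HTT-deleted cells, 3008 without HTT-deleted total replicate 1 and 0 or 1 without any other. In control cells it gave 1507 to 3251 calls, with 1507, 2119 and 2197 without control total replicates 1, 2 and 3. For replicate number in total RNA, no filter called 578 genes and DESeq2 763, against 0; leaving out 1 library gave 295 to 9861, the highest without control total replicate 1 and 3502 without HTT-deleted total replicate 1. The pairs 2 and 3 fits and the leave-one-out fits use fewer samples; the cause of the other shifts was not tested.

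The block changed the calls of Map2 and Nes in control cells, on pairs 2 and 3 only also in HTT-deleted cells, and no other call of the 9 genes. Signs of uncalled genes did change. In HTT-deleted against control total RNA, Tubb3 was at -0.0032 without the filter, and on pairs 2 and 3 with the block Tubb3 was at -0.38, Sox10 at 0.11, S100b at -0.10 and Nefm at -0.068. For the ratio, the block put Sox2 at -0.047, and the block on pairs 2 and 3 put Map2 at -0.047, Tubb3 at 0.031, Sox2 at -0.038, Sox10 at -0.83 and Htt at -0.17. For ribosome-associated against total RNA in HTT-deleted cells, no filter put S100b at 0.0077 and Ncam1 at 0.0050, the block put S100b at 0.065, and the block on pairs 2 and 3 put Tubb3 at 0.13, Sox10 at -0.71 and S100b at 0.47. In control cells Sox10 was at 0.042 with the block and at 0.11 with the block on pairs 2 and 3.

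Leaving out 1 library at a time, the log2 fold changes for HTT-deleted against control ribosome-associated RNA ran from -0.22 to 0.18 for Map2, -0.65 to 0.092 for Tubb3, -1.04 to 0.25 for Nefm and -0.41 to 0.18 for S100b. In total RNA they ran from -0.33 to 0.56 for Tubb3, -0.38 to 0.079 for Nes, -0.43 to 0.63 for Nefm, -0.48 to 0.15 for Map2, -0.12 to 0.98 for S100b and -0.47 to 0.066 for Ncam1. For the ratio the ranges were -0.57 to 0.75 for Sox2, -0.23 to 1.22 for Sox10, -0.15 to 0.47 for Map2, -0.85 to 0.12 for Tubb3, -0.25 to 0.21 for Nes, -0.26 to 0.71 for Htt, -0.45 to 0.15 for Ncam1 and -1.16 to 0.21 for Nefm. For ribosome-associated against total RNA in HTT-deleted cells they were -0.34 to 0.23 for Tubb3, -0.35 to 1.12 for Sox10, -0.30 to 0.42 for S100b and -0.22 to 0.22 for Ncam1. In control cells they were -0.55 to 0.31 for Sox10, -0.90 to 0.46 for Nefm, -0.20 to 0.77 for Tubb3, -0.47 to 0.86 for Sox2 and -0.17 to 0.43 for Ncam1.

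Depth limits Nefl and Sox2 most, at 0 to 6 and 2 to 24 reads per library, and Sox10, Nefm and S100b, with 4 to 95 reads, have standard errors of 0.34 to 1.06 on the log2 scale in the fits without the block. Each group has 3 replicates, and deletion was checked by Htt RNA alone.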
